A study of Canis lupus familiaris with 9 samples.

Results

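Creatine kinases and the enzymes of adenine nucleotide metabolism keep ATP available in skeletal muscle. They were examined here in muscle of 9 intact female beagles aged 4 years. The set comprised 7 named genes, CKM, CKMT2, CKB, AK1, AMPD1, AMPD3 and ADSL, and every array probe set whose platform annotation carried 1 of these as its only gene symbol was taken. That rule found 4 of the 7 genes, of 15115 symbols named on the array: CKMT2 with 3 probe sets, AK1 and ADSL with 2 each and AMPD1 with 1, or 8 probe sets in all. CKM, CKB and AMPD3 were not analysed here. The brightest probe set of a gene on average stands for it, and the others are given beside it.

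The ad libitum group was 5 dogs (animals 2, 5, 6, 7 and 8) that ate without restriction for 24 weeks. The control group was 4 dogs (animals 1, 3, 4 and 9) fed to hold their starting body weight for the same time. All dogs ate the same commercial diet, were allocated at random and gave muscle after an overnight fast. The sources used here do not name the muscle sampled, and each dog is a separate animal with 1 Affymetrix canine expression array.

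When a muscle fibre contracts, creatine kinase moves phosphate from phosphocreatine to ADP, with a cytosolic enzyme near the myofibrils and a mitochondrial one at the inner membrane where ATP is made. Adenylate kinase turns a pair of ADP molecules into ATP and AMP. AMP is then deaminated to IMP by AMP deaminase and rebuilt through adenylosuccinate synthase and adenylosuccinate lyase, a loop known as the purine nucleotide cycle, which is most active in fast fibres during hard work.

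Expression is given as GCRMA values, read as log2, for 43035 probe sets. The test covered the 18394 that exceeded 4 on 4 arrays or more, and 7 of the 8 probe sets of the enzymes were among them. Across probe sets, r between any 2 arrays was 0.976 to 0.994. Skeletal muscle markers were near the top of the scale, with 9 of 10 measured and list means of 15.43 to 15.58 in ad libitum and 15.48 to 15.57 in control dogs. The 3' minus 5' value of the GAPDH control probe sets, a sign of RNA integrity, was 2.14 to 2.29 in ad libitum and 1.96 to 2.22 in control dogs. All ad libitum dogs lay above control dogs 1, 3 and 9 on this value, and its part in the group differences was not tested. Since muscle was measured in bulk, fewer cells of a type and less RNA per cell cannot be told apart, and the number of arrays limits the precision.

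None of the 4 measured enzymes passed the test between feeding groups. AMPD1, the muscle isoform of AMP deaminase, had the largest difference of the 4, with a lower mean in ad libitum muscle, and AK1 had a lower mean with 1 ad libitum dog far below the rest. CKMT2 and ADSL had nearly equal means. With limma and Benjamini-Hochberg adjustment over all 18394 probe sets, 0 of the 4 genes had an adjusted p under 0.05, against 0% of all tested probe sets. Without adjustment, 1 of the 4 genes, AMPD1, had a limma p under 0.05, as did 5.91% of tested probe sets, and its mean was lower, as for 2.21%. The groups overlapped for all 4 genes, and did not overlap for 1.44% of tested probe sets (ad libitum below in 0.696%).

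**Figure D1:**
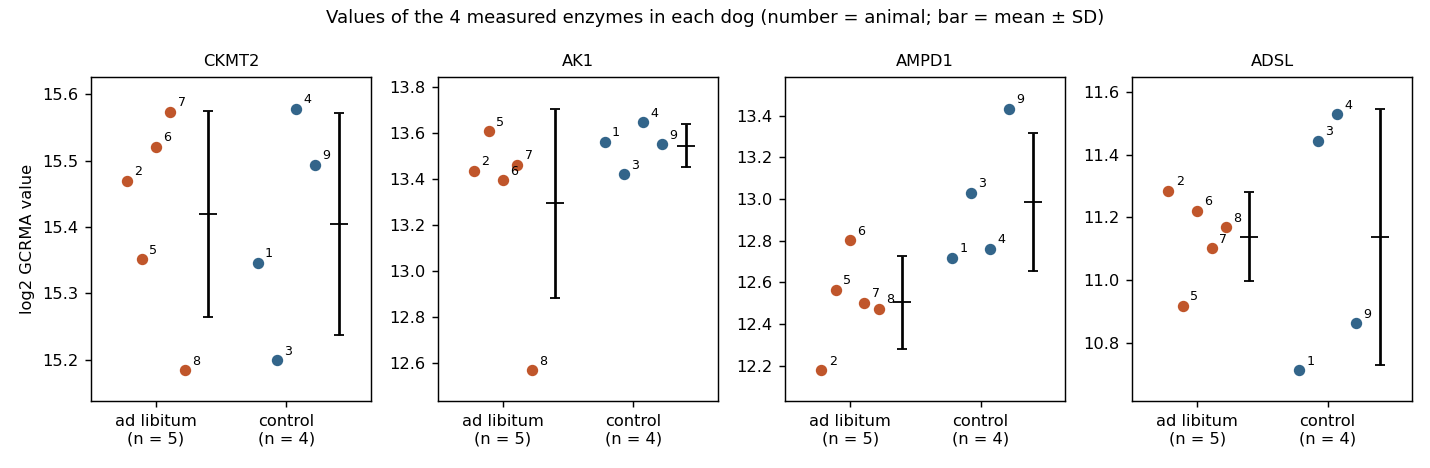
Log2 GCRMA values (vertical axis, a separate range for each gene) of the representative probe sets of CKMT2, AK1, AMPD1 and ADSL in 5 ad libitum and 4 control dogs. Each point is a dog with its animal number, and the bars give mean ± SD. For AMPD1, 4 of 5 ad libitum dogs lie below all control dogs, and for AK1 ad libitum dog 8 lies apart at 12.57.

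CKMT2 encodes the sarcomeric mitochondrial creatine kinase, which sits between the mitochondrial membranes and passes newly made ATP to creatine. Its representative probe set stood at 15.47, 15.35, 15.52, 15.57 and 15.18 in ad libitum dogs 2, 5, 6, 7 and 8, against 15.35, 15.20, 15.58 and 15.49 in control dogs 1, 3, 4 and 9. The groups covered almost the same range, with ad libitum dog 8 and control dog 3 lowest and ad libitum dog 7 and control dog 4 highest. The log2 difference was 0.016 (SE 0.13), with a 95% interval of -0.27 to 0.30, or 0.831 to 1.23 as a ratio of ad libitum to control (limma adjusted p = 0.989). On this probe set, differences inside that interval cannot be told from 0 with these dogs.

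A second CKMT2 probe set averaged 13.95 ± 0.27 over the ad libitum dogs (SD, n = 5) and 13.89 ± 0.39 over the controls (SD, n = 4), and the log2 difference came to 0.058 (SE 0.21). It ordered the dogs much as the first did, with r = 0.952 (exact permutation p = 4.96e-05) and rho = 0.967 (exact permutation p = 0.000165) over 9 dogs, and r = 0.907 without ad libitum dog 8 and control dog 3, the dogs farthest from the median. Adjusted over the 2 such relations, of CKMT2 and of ADSL, the p of r was 9.92e-05. The third CKMT2 probe set lay just above the limit of 4, between 4.12 and 4.58 in all dogs. On it the difference was -0.12 (SE 0.10), and 3 dogs, ad libitum dogs 5 and 7 and control dog 9, held 1 identical value of 4.39.

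AK1 encodes the main cytosolic adenylate kinase of muscle. It stood at 13.44, 13.61, 13.39, 13.46 and 12.57 in ad libitum dogs 2, 5, 6, 7 and 8, against 13.56, 13.42, 13.65 and 13.55 in control dogs 1, 3, 4 and 9. Ad libitum dogs 2, 5, 6 and 7 lay within or just below the control range, and ad libitum dog 8 lay well below every other dog. The mean was 13.29 ± 0.41 over the ad libitum dogs (SD, n = 5) and 13.55 ± 0.09 over the controls (SD, n = 4), and the log2 difference came to -0.25 (SE 0.20; 95% interval -0.71 to 0.21; limma adjusted p = 0.855). The AK1 difference was -0.071 when ad libitum dog 8 was left out. The other AK1 probe set stayed between 2.90 and 2.96 on every array, below the limit, and was not tested with the rest.

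AMPD1 is the AMP deaminase of skeletal muscle, whose inherited deficiency is common in people. It stood at 12.18, 12.56, 12.80, 12.50 and 12.47 in ad libitum dogs 2, 5, 6, 7 and 8, against 12.72, 13.03, 12.76 and 13.43 in control dogs 1, 3, 4 and 9. All 5 ad libitum dogs lay below the control mean and 4 of 5 lay below the lowest control dog, while ad libitum dog 6 lay above control dogs 1 and 4. The mean was 12.50 ± 0.22 over the ad libitum dogs (SD, n = 5) and 12.99 ± 0.33 over the controls (SD, n = 4). The log2 difference was -0.48 (SE 0.18), a ratio of 0.716 with a 95% interval of 0.541 to 0.948. The unadjusted limma p was 0.0247 and the adjusted p 0.796, and a two-sided exact permutation test of the group means gave p = 0.0317, where the smallest p the 126 arrangements allow is 0.00794. The difference was -0.33 without control dog 9, which had the highest value. AMPD1 had 1 probe set, so no second probe set bears on it.

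ADSL encodes adenylosuccinate lyase, which closes the purine nucleotide cycle and also acts in de novo purine synthesis. It stood at 11.28, 10.92, 11.22, 11.10 and 11.17 in ad libitum dogs 2, 5, 6, 7 and 8, against 10.71, 11.44, 11.53 and 10.86 in control dogs 1, 3, 4 and 9. The control dogs fell into a low and a high pair, and the ad libitum dogs lay between these pairs. The means were nearly equal, 11.14 ± 0.14 over the ad libitum dogs (SD, n = 5) and 11.14 ± 0.41 over the controls (SD, n = 4), with a log2 difference of 0.0014 (SE 0.19; 95% interval -0.42 to 0.42; limma adjusted p = 1.00). The second ADSL probe set split the control dogs in the same way, at 9.36 and 9.60 in dogs 1 and 9 and 10.23 and 10.24 in dogs 3 and 4, with every ad libitum dog between these pairs except dog 5 at 9.59. The pair of probe sets correlated with r = 0.970 (exact permutation p = 0.000102, adjusted p = 0.000102) and rho = 0.950 (exact permutation p = 0.000353) over 9 dogs, and with r = 0.932 without control dogs 1 and 4. The spread among control dogs was thus seen on both probe sets, which come from the same RNA and array.

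No pair of the 4 enzymes had a correlation that passed the test across dogs. Of 6 pairs, the highest correlation was that of CKMT2 with AK1, with r = 0.576 (exact permutation p = 0.0774, adjusted p = 0.464) and rho = 0.433 (exact permutation p = 0.250), and without ad libitum dog 8 and control dog 3 it was -0.25. AK1 with AMPD1 had r = 0.279 (exact permutation p = 0.380) and rho = 0.15 (exact permutation p = 0.708), and r = 0.155 without ad libitum dog 8 and control dog 4. The other 4 pairs lay between r = -0.16 and r = 0.071, and the lowest adjusted p of the 6 pairs was 0.464. Some turned on few dogs: CKMT2 with ADSL had r = 0.071, and r = 0.727 without ad libitum dog 8 and control dog 3, and AK1 with ADSL had r = -0.11, and r = -0.85 without ad libitum dog 8 and control dog 4.

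Fibre type was compared because fast fibres hold more AK1 and AMPD1 than slow ones. Fast fibre genes had lower means in ad libitum muscle for 11 of 11 measured members, though MYL1 differed by only -0.00049. List means were 13.25 to 14.62 in ad libitum and 14.17 to 14.66 in control dogs. Among ad libitum dogs MYH1 and ACTN3 spread most of the list, with SD 2.24 and 1.68. Slow fibre genes had higher means for 8 of 8 measured members, with list means of 14.03 to 14.39 in ad libitum and 13.95 to 14.26 in control dogs. None of these genes passed the test. Ad libitum dog 8, with the lowest AK1, also had the lowest fast fibre mean, 13.25.

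AK1 followed the fast fibre mean with r = 0.820 (exact permutation p = 0.0104, adjusted p = 0.125 over 12 relations) and rho = 0.633 (exact permutation p = 0.0760) over 9 dogs. Without ad libitum dog 8 and control dog 9, the farthest from the median, r was 0.500, and without ad libitum dog 8 alone r was 0.515, so the relation rests largely on that dog. With the fast fibre mean as a covariate the AK1 difference was -0.077. AMPD1 had r = 0.436 with the fast fibre mean (exact permutation p = 0.239, adjusted p = 0.406) and rho = 0.367 (exact permutation p = 0.336). Without ad libitum dog 8 and control dog 9 its r was 0.044. The AMPD1 group difference was -0.43 (SE 0.20) with the fast fibre covariate and -0.48 (SE 0.18) without it. The part of fibre type in the AK1 and AMPD1 differences was not tested. CKMT2 had r = 0.386 with the fast fibre mean (exact permutation p = 0.305, adjusted p = 0.406) and rho = 0.183 (exact permutation p = 0.644). Without ad libitum dog 8 and control dog 9 the CKMT2 r was -0.19. After each group's mean was subtracted, r with the fast fibre mean was 0.790 for AK1, 0.271 for AMPD1 and 0.437 for CKMT2.

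ADSL ran with the slow fibre mean, with r = 0.698 (exact permutation p = 0.0411, adjusted p = 0.247) and rho = 0.667 (exact permutation p = 0.0589) over 9 dogs. Without control dogs 1 and 9, where both measures were low, r was 0.420, so the relation rests largely on these dogs. After each group's mean was subtracted r was 0.764. No relation of the 12 passed an adjusted p of 0.05. With the adipocyte list mean the 4 enzymes had r between -0.44 and -0.19, with AMPD1 lowest. After each group's mean was subtracted, these were -0.010 for AMPD1, 0.0088 for AK1, -0.28 for CKMT2 and -0.53 for ADSL.

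**Figure D2:**
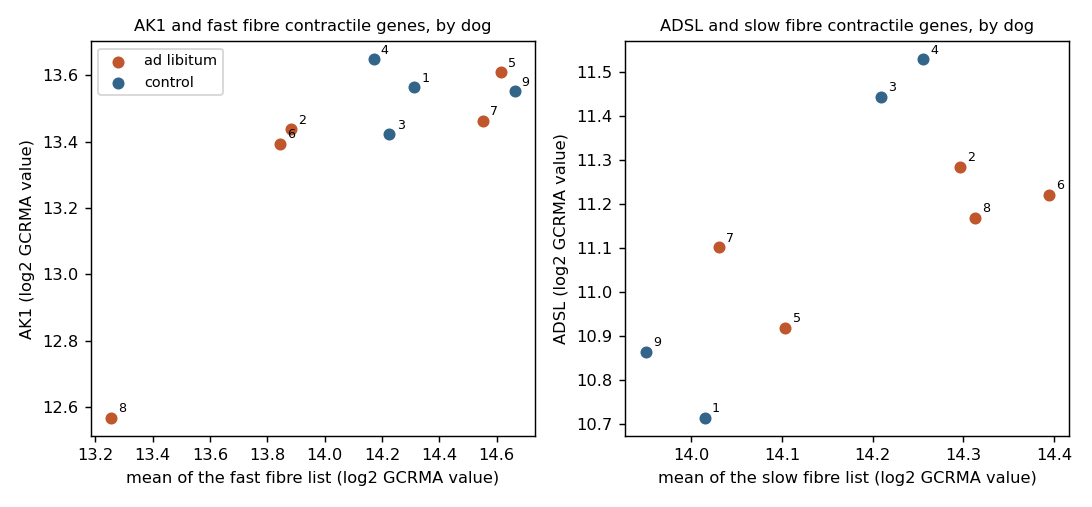
Left, AK1 against the mean of 11 fast fibre genes. Right, ADSL against the mean of 8 slow fibre genes, both axes in log2 GCRMA values with a point and animal number for each of 5 ad libitum and 4 control dogs. Ad libitum dog 8 is lowest on both axes of the left plot, and control dogs 1 and 9 have the lowest ADSL and the lowest slow fibre means on the right.

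Among the 7534 genes with a tested probe set, the 3 whose pattern over the 9 dogs was most like each enzyme were taken by Pearson's r. These maxima were picked from 7533 candidates each, share arrays and normalization with the enzymes, and are descriptions only. CKMT2 was followed most closely by COX11, an assembly factor of cytochrome c oxidase, at r = 0.955, by TMEM9B at r = 0.942 and by MTFMT, which formylates the mitochondrial initiator tRNA, at r = 0.925. AMPD1 was followed by HECA at r = 0.941, C4H1orf131 at r = 0.919 and MTRR, methionine synthase reductase, at r = 0.870. ADSL was followed by GORASP1, a Golgi stacking protein, at r = 0.959, PMEPA1 at r = 0.933 and BLOC1S4 at r = 0.919. For AK1 the closest were ZFP64 at r = 0.978, LRRC10 at r = 0.961 and ALG13 at r = 0.959. The r without the 2 dogs farthest from the median of the enzyme was 0.780 to 0.925 for the CKMT2 and ADSL genes, HECA and C4H1orf131, and 0.499 for MTRR without ad libitum dog 2 and control dog 9. Without ad libitum dog 8 and control dog 4, ZFP64 had r = 0.796, while LRRC10 and ALG13 had r = 0.039 and r = 0.047, so their likeness to AK1 rests on these dogs. LRRC10 and ALG13 also lay just above the limit of 4, with group means of 4.20 to 4.34. Their rho with AK1 over 9 dogs was -0.025 and 0.390.

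Other genes of the same pathways were taken from lists of 50, of which 37 were measured. By the adjusted p, 0 of the 37 passed in either direction, against 0% of all tested probe sets. Without adjustment, 3 had a limma p under 0.05 with a higher mean and 2 with a lower mean, where 3.71% and 2.21% of tested probe sets did. These were AMPD2, SLC25A5 and NME1, and PRPS2 and GMPR. Lower means were held by 22 of the 37 (59.5%) and by 50.4% of all 7534 tested genes, and the median log2 difference was -0.034 against -0.0021. The values of the genes named next are given as values, since none passed.

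**Figure D3:**
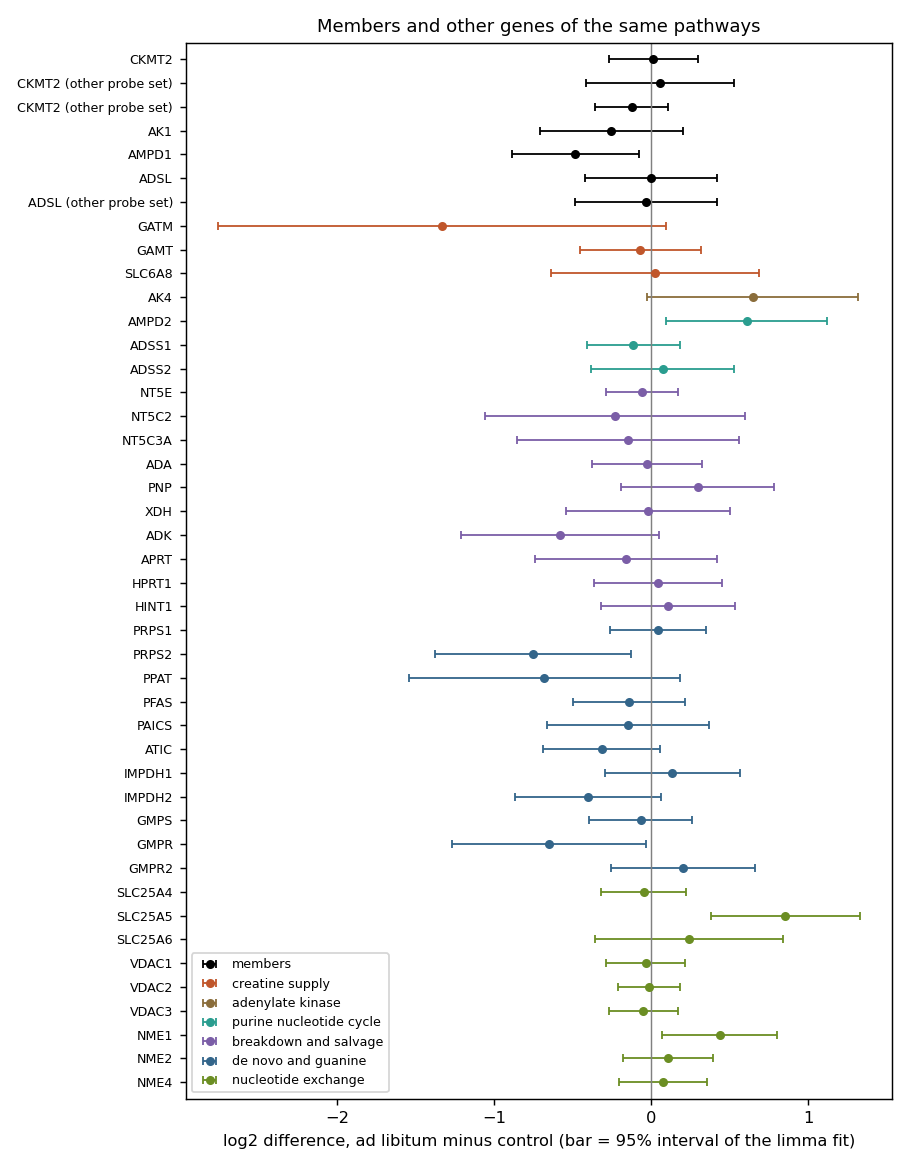
Log2 difference, ad libitum minus control (horizontal axis), with its 95% interval from the limma fit, for 7 tested probe sets of the 4 enzymes (black) and 37 other genes of the same pathways (coloured by list). Most intervals cover 0. The point farthest to the left is GATM at -1.33 and the point farthest to the right is SLC25A5 at 0.86.

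In the supply of creatine, GATM stood apart by size. GATM makes guanidinoacetate, the precursor of creatine, and stood at 4.34, 5.71, 7.16, 6.62 and 7.27 in ad libitum dogs 2, 5, 6, 7 and 8, against 6.51, 7.80, 7.33 and 8.57 in control dogs 1, 3, 4 and 9. Ad libitum dogs 2 and 5 lay below every control dog, and the other ad libitum dogs lay between control dogs 1 and 4. The log2 difference was -1.33 (SE 0.63; limma adjusted p = 0.796). Without ad libitum dog 2 it was -0.86. The other 3 GATM probe sets had -1.19, -1.25 and -1.52, with unadjusted limma p between 0.0214 and 0.0274. With the adipocyte list mean as a covariate the GATM difference was -0.75. GAMT, which methylates guanidinoacetate to creatine, and SLC6A8, the creatine transporter of the fibre membrane, had -0.067 (SE 0.17) and 0.024 (SE 0.29).

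Of 8 other adenylate kinases only AK4, a mitochondrial matrix isoform, was measured. AK4 stood at 7.82, 7.51, 8.06, 7.23 and 8.16 in ad libitum dogs 2, 5, 6, 7 and 8, against 8.02, 6.81, 6.84 and 6.76 in control dogs 1, 3, 4 and 9. All ad libitum dogs lay above control dogs 3, 4 and 9, and control dog 1 lay among the highest ad libitum dogs. The log2 difference was 0.65 (SE 0.30; limma adjusted p = 0.796), and a second AK4 probe set had 0.67.

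In the purine nucleotide cycle, AMPD2, the AMP deaminase of liver and many other tissues, had a higher mean in ad libitum muscle, opposite to AMPD1. AMPD2 stood at 7.12, 7.21, 6.84, 6.65 and 6.63 in ad libitum dogs 2, 5, 6, 7 and 8, against 6.65, 6.65, 5.69 and 6.14 in control dogs 1, 3, 4 and 9. Ad libitum dogs 2, 5 and 6 lay above all control dogs, and ad libitum dog 7 and control dogs 1 and 3 held 1 identical value. The log2 difference was 0.61 (SE 0.23; limma adjusted p = 0.796). AMPD2 had 4 probe sets on the array, and the others were not tested. ADSS1, the muscle adenylosuccinate synthase, and ADSS2, its isoform of other tissues, had -0.11 (SE 0.13) and 0.074 (SE 0.20).

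Among genes of mitochondrial nucleotide exchange, SLC25A5, an ADP/ATP carrier best known from tissues other than adult muscle, was the only pathway gene whose groups did not overlap. SLC25A5 stood at 9.03, 8.78, 8.21, 8.09 and 8.34 in ad libitum dogs 2, 5, 6, 7 and 8, against 7.52, 7.72, 7.91 and 7.38 in control dogs 1, 3, 4 and 9. All ad libitum dogs lay above all control dogs, as they did for 0.739% of tested probe sets, and the log2 difference was 0.86 (SE 0.21; limma adjusted p = 0.796). SLC25A5 had 1 probe set on the array. SLC25A4, the carrier of heart and skeletal muscle, stood at 15.59 ± 0.07 over the ad libitum dogs (SD, n = 5) and 15.64 ± 0.21 over the controls (SD, n = 4), and the log2 difference came to -0.047 (SE 0.12). SLC25A6 had 0.24 (SE 0.27). NME1, a nucleoside diphosphate kinase, had 0.44 (SE 0.16; limma adjusted p = 0.796), and NME2 had 0.11 (SE 0.13). NME1 averaged 6.72 in ad libitum and 6.28 in control dogs, and NME2 14.89 and 14.78. NME1 had 2 probe sets on the array, and the other was not tested.

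**Figure D4:**
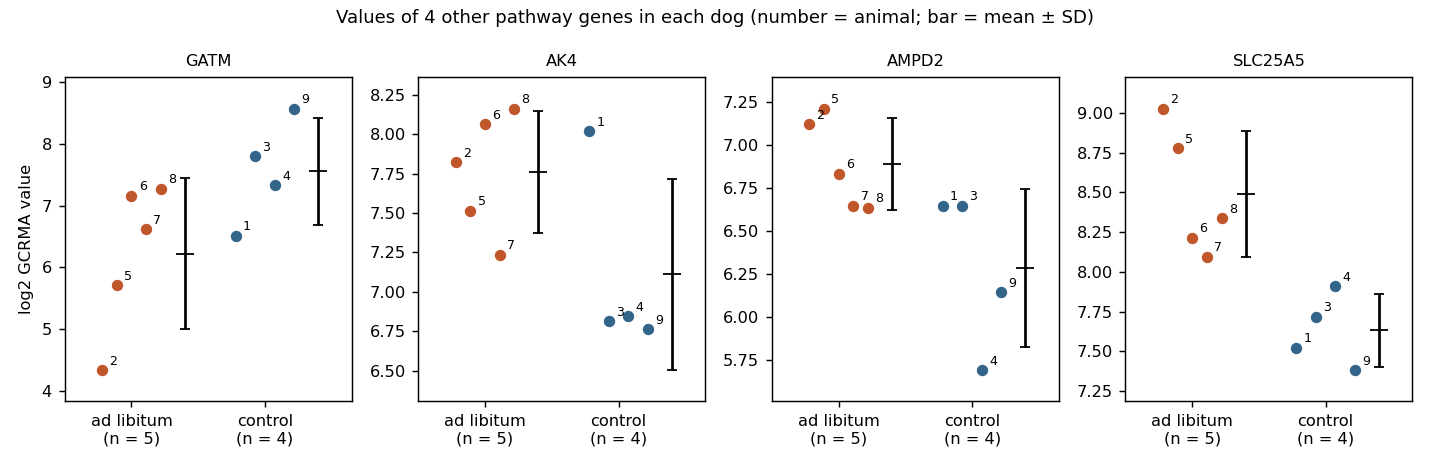
Log2 GCRMA values (vertical axis, a separate range for each gene) of GATM, AK4, AMPD2 and SLC25A5 in 5 ad libitum and 4 control dogs, each point a dog with its animal number and the bars mean ± SD. Only for SLC25A5, of these 4, do all ad libitum dogs (8.09 to 9.03) lie above all control dogs (7.38 to 7.91).

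Markers of fat, macrophages and matrix-forming cells had higher means beside AMPD2, AK4 and SLC25A5. Adipocyte markers had higher means for 11 of 12 measured members of 12 listed, with list means of 8.38 to 10.44 in ad libitum and 7.49 to 9.47 in control dogs. Macrophage markers did for 5 of 5 measured of 10 listed, with list means of 4.71 to 8.46 against 4.56 to 5.65, while CD68, CSF1R, TYROBP, FCER1G and AIF1 had no tested probe set. Fibroblast and matrix markers did for 10 of 10, with list means of 8.27 to 12.20 in ad libitum and 8.10 to 9.40 in control dogs. Other lists varied. Means were lower for 4 of 8 measured endothelial and 3 of 7 smooth muscle markers. They were also lower for 2 of 2 red cell (8 listed) and 1 of 1 lymphocyte markers (8 listed). Means were higher for 2 of 2 nerve (8 listed) and 2 of 2 heart muscle markers (6 listed). With the adipocyte mean as a covariate the differences of AMPD2, AK4 and SLC25A5 were 0.27 (SE 0.24), 0.19 (SE 0.31) and 0.76 (SE 0.28). That of NME1 was 0.43 (SE 0.22). The adipocyte mean itself was 9.65 in ad libitum and 8.51 in control dogs, so it cannot be told apart from feeding. The part of adipocytes, macrophages and fibroblasts in these differences was not tested.

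In de novo purine synthesis and the guanine branch, 8 of 11 measured genes had lower means in ad libitum muscle. GMPR, which returns GMP to IMP, averaged 8.48 ± 0.50 over the ad libitum dogs (SD, n = 5) and 9.13 ± 0.38 over the controls (SD, n = 4), and the log2 difference came to -0.65 (SE 0.27; limma adjusted p = 0.796), and a second GMPR probe set had -0.54. PRPS2, a phosphoribosyl pyrophosphate synthetase, had -0.75 (SE 0.28; limma adjusted p = 0.796), but its ad libitum mean of 3.76 lay below the limit of 4, and with values below 4 raised to 4 the difference was -0.44. IMPDH2, the first enzyme of guanine nucleotide synthesis from IMP, and ATIC, which makes IMP, had -0.40 (SE 0.21) and -0.31 (SE 0.17). The IMPDH2 difference was -0.23 without control dog 3, and that of ATIC was -0.19 without ad libitum dog 5. In breakdown and salvage, 7 of 10 measured genes had lower means and 0 had an unadjusted limma p under 0.05. ADK, which phosphorylates adenosine to AMP, had -0.58 (SE 0.28) and -0.63 on its second probe set, and PNP, which cleaves inosine and guanosine, had 0.30 (SE 0.22). The PNP difference was 0.47 without ad libitum dog 7 and 0.19 without control dog 3.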

How the data were processed

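Muscle RNA was hybridised to 1 array per dog. The deposited values, read here as log2 from their range, were made by the authors with GCRMA, per the submitters' processing notes. That method corrects background by probe sequence, quantile-normalizes arrays and summarises each probe set. Quantile normalization can hide a shift of most transcripts, and low values are uncertain in size. At any level, 25.3% of tested probe sets held an identical value on 2 or more arrays.

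Control probe sets (111) were left out. Group differences came from limma 3.58.1 (lmFit and eBayes without covariates, two-sided, under R 4.3.3), adjusted by Benjamini-Hochberg over 18394 probe sets, and tested on simulated data. Correlations used exact permutation over pairings (the share with an absolute r at least as large) in Python 3.11.15, adjusted within each family. Names came from the platform annotation. The named genes were the enzymes, genes of the pathway lists and the 3 most alike per enzyme. Members and lists were chosen with earlier results of these data known. No batch is given in the labels. Alternatives covered filters, floor, normalization, eBayes settings, array weights, covariates, probe sets and leaving out dogs.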

Additional observations from a re-analysis of the deposited data

Results flagged for a closer look

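Of 96 sets of 4 or 5 values checked, 12 (12.5%) held a dog whose gap to its nearest neighbour was large for the group's range by Dixon's test, where chance gives about 5%, and the sets share dogs. In ad libitum dog 8, AK1 was 12.57, with the next dog at 13.39. Its other AK1 probe set, below the limit, was 2.90 in the same dog with the next at 2.92, and APRT, adenine phosphoribosyltransferase, was 8.47 with the next at 9.24. In ad libitum dog 6 the third CKMT2 probe set was 4.12, with the next at 4.36. PAICS was 5.69 in ad libitum dog 2, VDAC3 14.19 in ad libitum dog 5 and NME4 5.71 in ad libitum dog 7. Among control dogs, AK4 was 8.02 and GMPR2 6.46 in dog 1, PFAS 5.06 in dog 3, NME4 5.19 in dog 4 and ADA 8.05 in dog 9.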

How the results depend on the processing

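No setting brought CKMT2, AK1, AMPD1 or ADSL past an adjusted p of 0.05. AMPD1 kept its direction under all 22 alternatives, at -0.57 to -0.33 with a dog left out, and adjusted p ran from 0.397 to 1.00. Its unadjusted p was under 0.05 in 16 of the 22. With the fast fibre, slow fibre and adipocyte means as covariates the AMPD1 difference was -0.43, -0.44 and -0.48 (SE 0.20, 0.21 and 0.24). The unadjusted limma p was 0.0615, 0.0644 and 0.0826 with these covariates. Without ad libitum dog 2 it was 0.0529. AK1 kept its direction under 23 alternatives, at -0.33 to -0.071 with a dog left out. CKMT2 and ADSL, near 0, changed sign. CKMT2 ran from -0.053 to 0.075 with a dog left out, and was -0.015 with array weights, -0.12 on the third probe set and -0.017 as the mean of its probe sets. ADSL ran from -0.14 to 0.13 with a dog left out, and was -0.0053 with cyclic loess, -0.084 and -0.17 with the fast and slow fibre means as covariates, -0.032 on its second probe set and -0.016 as the mean of both. The count of called probe sets was 0, and 1 with values below 4 raised to 4 (CISH) or without ad libitum dog 8 (LOC489640), so 0 to 1 with a dog left out. The median of the pathway genes ran from -0.054 to 0.0030 with a dog left out. Among named pathway genes, SLC6A8 was -0.051 with array weights. With the adipocyte covariate ADSS1 was 0.086, PNP -0.028, SLC25A6 -0.18 and NME2 -0.00094. GAMT was 0.0065 and 0.021 with the fast and slow fibre covariates. With a dog left out SLC6A8 ran from -0.19 to 0.18, ADSS2 from -0.084 to 0.18, GAMT from -0.18 to 0.043 and SLC25A4 from -0.14 to 0.025. The cause of these sign changes was not tested. ADSS1 ran from -0.16 to -0.029, SLC25A6 from 0.088 to 0.44 and NME2 from 0.055 to 0.17 with a dog left out. For the correlations, all settings except leaving out a dog for pairs of enzymes were chosen after seeing the data. With cyclic loess CKMT2 had r = -0.057 with AMPD1 and r = -0.0071 with ADSL, and with centred arrays r = 0.011 with the slow fibre mean. With a dog left out, CKMT2 ran from r = -0.20 to r = 0.238 with AMPD1, r = -0.20 to r = 0.390 with ADSL, r = -0.086 to r = 0.495 with the fast fibre mean, r = -0.32 to r = 0.10 with the slow fibre mean and r = -0.48 to r = 0.112 with the adipocyte mean. AMPD1 with ADSL ran from r = -0.34 to r = 0.207. AK1 with the fast fibre mean ran from r = 0.515 to r = 0.854, and passed only without control dog 4 (exact permutation, adjusted p = 0.0396). No paired analysis was possible because the groups share no animal number. The deposited values give no scanner signal over background.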

Other observations

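For 3 pairs of isoforms the difference between the muscle isoform and the isoform of other tissues was taken within each array. These pairs were chosen after their values were seen, so no test is given, and the difference does not compare their levels. AMPD1 minus AMPD2 was 5.06 to 5.97 in ad libitum and 6.07 to 7.29 in control dogs, a shift of -1.09. Alone, AMPD1 differed by -0.48 and AMPD2 by 0.61. SLC25A4 minus SLC25A5 was 6.65 to 7.50 in ad libitum and 7.63 to 8.24 in control dogs, a shift of -0.90. That shift was almost wholly SLC25A5, which differed by 0.86, while SLC25A4 differed by -0.047. How often other pairs of genes separate the groups was not counted, so these ranges are descriptions only. ADSS1 minus ADSS2 was 6.19 to 6.82 in ad libitum and 6.32 to 7.23 in control dogs, a shift of -0.19.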
